A study of Rattus norvegicus with 3 samples.

Results

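The genes of cholesterol synthesis, transport and turnover were examined in motor cortex from 3 male rats of the outbred Sprague-Dawley stock, none of them treated. The set held 35 named genes, all of which were found, each under 1 Ensembl gene ID, among the 30957 genes of the expression tables. The animals, numbered 32, 39 and 68, formed 1 group, called normal, with a labelled time of 8 weeks, whose starting point is not stated. Total RNA was purified, enriched for mRNA and sequenced as 1 library per animal, so an animal cannot be told apart from its dissection or its library. Levels are given as FPKM, fragment counts scaled to gene length and library size, and as mean ± SD over the 3 animals where a mean is shown.

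Cholesterol in the brain is made locally, because lipoproteins of the blood hardly cross the barrier of its vessels. The mevalonate pathway turns acetyl-CoA into isoprenoid units, which are joined into squalene, closed into lanosterol and trimmed to cholesterol. The transcription factors of the SREBP family drive the genes of this route when the membrane of the endoplasmic reticulum is poor in sterol. Astrocytes and oligodendrocytes are the main producers in adult brain, and oligodendrocytes place much of the product in myelin. Astrocytes load cholesterol onto apolipoprotein E, neurons take up the particles through receptors of the LDL receptor family, and neurons dispose of surplus by hydroxylating it so that it can leave the brain.

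The libraries were inferred to hold 15460924 to 17670986 fragments, so that 1 FPKM rested on 15.5 to 17.7 fragments per kilobase of gene. Animal 68 stood apart from the other animals. Choroid plexus markers, led by Ttr and Enpp2, summed to 60.9, 704 and 8156 FPKM in animals 32, 39 and 68, with all 8 markers highest in animal 68. All 8 were also higher in animal 39 than in animal 32. Ttr was at 8.36, 615 and 7264 FPKM, and Enpp2, at 49.3 FPKM, made up most of the sum in animal 32. Markers of the labelled tissue were present: all 10 neuronal and all 10 oligodendrocyte markers, and 8 of 10 astrocyte markers, lay above the median expressed gene by the test described next. By that test 41.7% of all genes lay above it.

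All 35 genes were well detected in every animal, at no less than 3 FPKM, and 26 of them reached 10 FPKM in all 3 libraries. The median expressed gene was itself at 9.82, 10.3 and 10.8 FPKM in animals 32, 39 and 68. No share of all genes reaching these limits was computed, so the 2 counts describe detection only. The median gene of the set stood at 22.4 ± 4.64 FPKM, against 10.3 ± 0.477 FPKM for the 13378 expressed genes, those averaging 1 FPKM or more. Each gene was tested against the median of those 13378 genes in its own library (limma, moderated one-sample test on log2(FPKM + 0.1), Benjamini-Hochberg adjustment over all 13378 genes, threshold 0.05). Of the cholesterol genes, 25 lay above the median gene, where the same call was made for 41.7% of all genes tested. A further 4 lay below it (41.5% of all genes), and 6 did not pass in either direction. Without animal 39, 22 lay above and 1 below, where 34.6 and 34.1% of all genes did in that fit. Without animal 32, 24 lay above and 1 below (38.7 and 38.4% of all genes), and without animal 68, 24 and 7 (42.5 and 42.8%). With any single animal left out 22 of the 25 kept their call above the median, while Mvk, Nsdhl and Lrp8 lost it in at least 1 of these fits. The test covers the spread between libraries, not errors of gene length or mapping that all 3 libraries share.

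**Figure D1:**
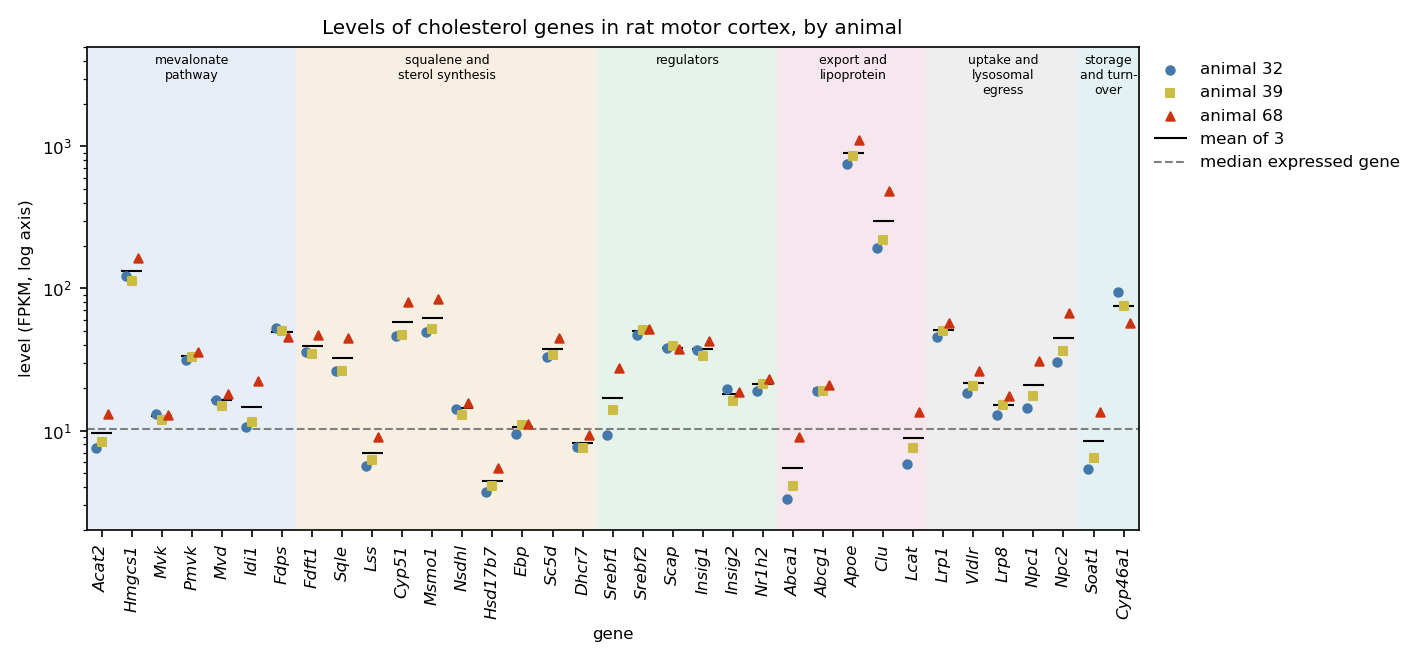
Level of each of the 35 cholesterol genes (FPKM, logarithmic axis), grouped by role, with 1 point per animal, a bar at the mean of the 3 and a dashed line at the median of the 13378 expressed genes. Apoe, Clu and Hmgcs1 stand above 100 FPKM, and Hsd17b7 and Abca1 are the lowest.

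The supply of isoprenoid units began with a wide range of levels. Hmgcs1, which makes HMG-CoA in the cytosol (ENSRNOG00000016552, Rnor_6.0 chromosome 2, 52431601 to 52445055), stood at 122, 113 and 164 FPKM in animals 32, 39 and 68. It was the highest enzyme of synthesis, 3.66 above the median gene on the log2 scale (SE 0.13, n = 3; limma, adjusted p = 9.29e-05), and held 24.5 ± 0.788% of the summed FPKM of the 17 synthesis enzymes. Acat2, the cytosolic thiolase that supplies its substrate, was at 7.58, 8.32 and 13.0 FPKM and did not differ from the median gene by the test (-0.14, SE 0.16; limma, adjusted p = 0.475). Acat2 was lower than Hmgcs1 in all 3 animals, by a log2 ratio of -3.80 ± 0.17.

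The later enzymes of the mevalonate pathway were less uneven. The kinase Mvk measured 13.0, 11.9 and 13.0 FPKM, a call above the median gene that no fit with an animal left out kept, and the next kinase, Pmvk, measured 31.3, 33.0 and 35.7 FPKM. Pmvk exceeded Mvk in every animal (log2 ratio of Mvk over Pmvk -1.40 ± 0.11), with no overlap between the libraries. The decarboxylase Mvd was at 16.3, 14.8 and 18.0 FPKM. Idi1, the isomerase of the isoprenoid units, was at 10.7, 11.4 and 22.2 FPKM, so it lay below Mvd in animals 32 and 39 and above it in animal 68. Fdps, which joins the units into farnesyl diphosphate (ENSRNOG00000043377, Rnor_6.0 chromosome 2, 188392858 to 188413219), was at 52.7, 50.2 and 45.3 FPKM and was the only enzyme of synthesis that was lowest in animal 68. Of the 7 genes of this section of the route, 5 lay above the median gene and none below, beside 41.7 and 41.5% of all genes. The level of Idi1 did not pass (0.43, SE 0.22; limma, adjusted p = 0.135). With the filter at a mean of 5 FPKM, Mvd lost its call above the median gene, and Mvk and Acat2 lay below it. With no filter, Acat2 and Idi1 lay above it. Idi1 overlaps Wdr37 on the opposite strand by 100 bases, and Wdr37 was at 20.8, 18.9 and 14.9 FPKM.

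Farnesyl diphosphate is committed to sterol by Fdft1, the squalene synthase, which was at 35.8, 34.6 and 47.3 FPKM. Fdps over Fdft1 had log2 ratios of 0.55, 0.54 and -0.06, so the order of this pair was not the same in animal 68. Sqle, the squalene epoxidase and a control point of the route, was at 26.1, 26.2 and 45.0 FPKM, with animals 32 and 39 close together and animal 68 higher. Lss, which closes the ring to lanosterol, was much lower, at 5.60, 6.16 and 9.05 FPKM. Sqle exceeded Lss by a log2 ratio of 2.19 ± 0.11, and Lss was 1 of the 4 genes below the median gene (-0.59, SE 0.15; limma, adjusted p = 0.0183), a call lost without animal 32 or without animal 39.

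Enzymes that trim lanosterol to cholesterol alternated between high and low levels. Cyp51, the lanosterol demethylase (ENSRNOG00000007234, Rnor_6.0 chromosome 4, 27175243 to 27194018), stood at 46.3, 47.2 and 80.3 FPKM. Msmo1, which oxidizes the methyl groups at the next position to be cleared (ENSRNOG00000032297, Rnor_6.0 chromosome 16, 26859397 to 26875973), stood at 49.3, 51.6 and 84.9 FPKM. Both showed the pattern of Sqle, with animals 32 and 39 alike and animal 68 higher. Nsdhl and Hsd17b7 act with Msmo1 in that removal. They were lower, at 14.2, 12.9 and 15.7 FPKM for Nsdhl and at 3.66, 4.07 and 5.47 FPKM for Hsd17b7, the lowest gene of the set (-1.23 on the log2 scale against the median gene, SE 0.13; limma, adjusted p = 0.00103). Msmo1 exceeded Nsdhl by a log2 ratio of 2.07 ± 0.33, and Cyp51 exceeded Lss by 3.03 ± 0.11.

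Among the last enzymes, Ebp, the sterol isomerase, was at 9.40, 11.0 and 11.2 FPKM, level with the median gene (0.03, SE 0.09; limma, adjusted p = 0.796). Sc5d, the desaturase, was at 33.1, 34.0 and 44.9 FPKM. Dhcr7, the reductase that converts its product to cholesterol, was at 7.63, 7.50 and 9.30 FPKM, below Sc5d in every animal by a log2 ratio of -2.17 ± 0.08. Dhcr7 lay below the median gene (-0.34, SE 0.10; limma, adjusted p = 0.0311), though not when animal 32 or animal 39 was left out. In all, the 10 genes from squalene to cholesterol held 6 above and 3 below the median gene, beside 41.7 and 41.5% of all genes.

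The regulators included some of the steadiest genes of the set. Scap, which escorts SREBP proteins to the Golgi for cleavage, was at 37.8, 39.3 and 37.7 FPKM, and its SD on the log2 scale (0.034) was at percentile 2.92 of all 13378 genes. Srebf2, the SREBP gene tied most closely to cholesterol synthesis, was at 47.1, 51.0 and 52.1 FPKM. Srebf1, whose products also drive fatty acid synthesis, was at 9.32, 14.0 and 27.7 FPKM and was the most variable of the 35 genes (SD 0.79 on the log2 scale, percentile 94.7). Srebf2 exceeded Srebf1 in every animal, 5.02-fold in animal 32, 3.61-fold in animal 39 and 1.88-fold in animal 68. Srebf1 overlaps Rai1 on the opposite strand by 588 bases, and Rai1 was at 14.4, 15.7 and 12.01 FPKM. No strand setting is stated, so fragments in the overlap cannot be assigned.

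Insig1 and Insig2 hold the SREBP escort in the endoplasmic reticulum when sterol is ample, and Insig1 is itself a target of SREBP. Insig1 (ENSRNOG00000006859, Rnor_6.0 chromosome 4, 342302 to 350515) was at 36.7, 33.2 and 42.5 FPKM and Insig2 at 19.7, 16.1 and 18.7 FPKM. Insig1 exceeded Insig2 by a log2 ratio of 1.04 ± 0.14, and the libraries did not overlap. Scap and Insig1 were nearly equal (log2 ratio 0.04 ± 0.21), with the order reversed in animal 68. Nr1h2, the liver X receptor beta that senses oxidized sterols, was at 19.1, 21.3 and 23.0 FPKM. Of the 6 regulators, 5 lay above the median gene (41.7% of all genes), and Srebf1 did not pass (0.57, SE 0.30, limma, adjusted p = 0.138). With the filter at a mean of 5 FPKM, Insig2 lost its call. Srebf1 lay above the median gene without animal 32 and with no filter.

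Carriers of exported cholesterol dominated the set. Apoe, the main apolipoprotein of brain lipoproteins (ENSRNOG00000018454, Rnor_6.0 chromosome 1, 80612895 to 80617057), was at 747, 852 and 1115 FPKM and ranked 27 among the 13378 expressed genes. Apoe alone held 41.3 ± 1.60% of the summed FPKM of the 35 genes. Clu, clusterin or apolipoprotein J (ENSRNOG00000016460, Rnor_6.0 chromosome 15, 42640146 to 42665857), was at 192, 221 and 483 FPKM, with animal 68 well above the others. These levels were followed by a steep drop to the transporters that lipidate such particles. Abca1 was at 3.27, 4.07 and 9.02 FPKM and Abcg1 at 18.9, 18.9 and 20.8 FPKM. Abca1 lay below the median gene (-1.04, SE 0.29; limma, adjusted p = 0.0255), a call lost without animal 32 or without animal 39. Abcg1 exceeded Abca1 in all animals, with log2 ratios of Abca1 over Abcg1 of -2.49, -2.18 and -1.19, and Apoe exceeded Abca1 by 7.47 ± 0.46. Lcat, which esterifies cholesterol on the particles, was at 5.85, 7.50 and 13.4 FPKM.

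Receptors and lysosomal proteins that bring cholesterol into cells all lay above the median gene, 5 of 5 (41.7% of all genes). With the filter at a mean of 5 FPKM, Npc1 and Lrp8 lost that call. Lrp1, a large endocytic receptor for Apoe, was at 45.5, 50.3 and 56.8 FPKM. Vldlr was at 18.5, 20.5 and 26.2 FPKM and Lrp8 at 12.9, 15.0 and 17.6 FPKM; both are receptors for Apoe and for reelin. The order Lrp1, Vldlr, Lrp8 held within each animal, with log2 ratios of 1.23 ± 0.10 for Lrp1 over Vldlr and -0.52 ± 0.06 for Lrp8 over Vldlr, and the ranges of the 3 genes did not overlap. The soluble lysosomal protein Npc2, which hands cholesterol to Npc1, was at 30.3, 36.0 and 67.1 FPKM, and the membrane protein Npc1 was at 14.5, 17.4 and 30.7 FPKM. Npc2 exceeded Npc1 2.09-fold, 2.07-fold and 2.18-fold, the steadiest of the 20 ratios examined (SD 0.041 on the log2 scale), while both genes were higher in animal 68. Npc1 shares 406 bases with RGD1311805 on the opposite strand (15.9 FPKM on average).

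Turnover and storage differed between animals in opposite directions. Cyp46a1, the neuronal hydroxylase through which most cholesterol leaves the brain (ENSRNOG00000007147, Rnor_6.0 chromosome 6, 132242328 to 132273787), was at 94.5, 75.6 and 56.7 FPKM, highest in animal 32 and lowest in animal 68. Soat1, which esterifies cholesterol for storage in droplets, was at 5.32, 6.39 and 13.6 FPKM, in the reverse order. The ratio of Cyp46a1 to Soat1 was 17.4 in animal 32, 11.7 in animal 39 and 4.15 in animal 68, the widest spread of the 20 ratios (SD 1.07 on the log2 scale). Cyp46a1 remained the larger in every library.

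Ranked by mean, the order of the genes was clear at the top. Apoe, Clu, Hmgcs1 and Cyp46a1 followed each other without overlap between their libraries. Of the 34 neighbouring positions in the ranking, 10 had the same order in all 3 animals, and at 4 of them, the 3 at the top and Mvk over Ebp, the libraries did not overlap. Of the 20 pairs of related genes, 17 had the same direction in all 3 animals, and 14 exceeded 2-fold in each of them. The pairs were chosen with earlier results known, and no share over other pairs was computed. Both counts therefore describe these pairs only. No p-value is given for these ratios, since the smallest that sign flips over 3 animals allow is 0.25 (exact, two-sided).

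**Figure D2:**
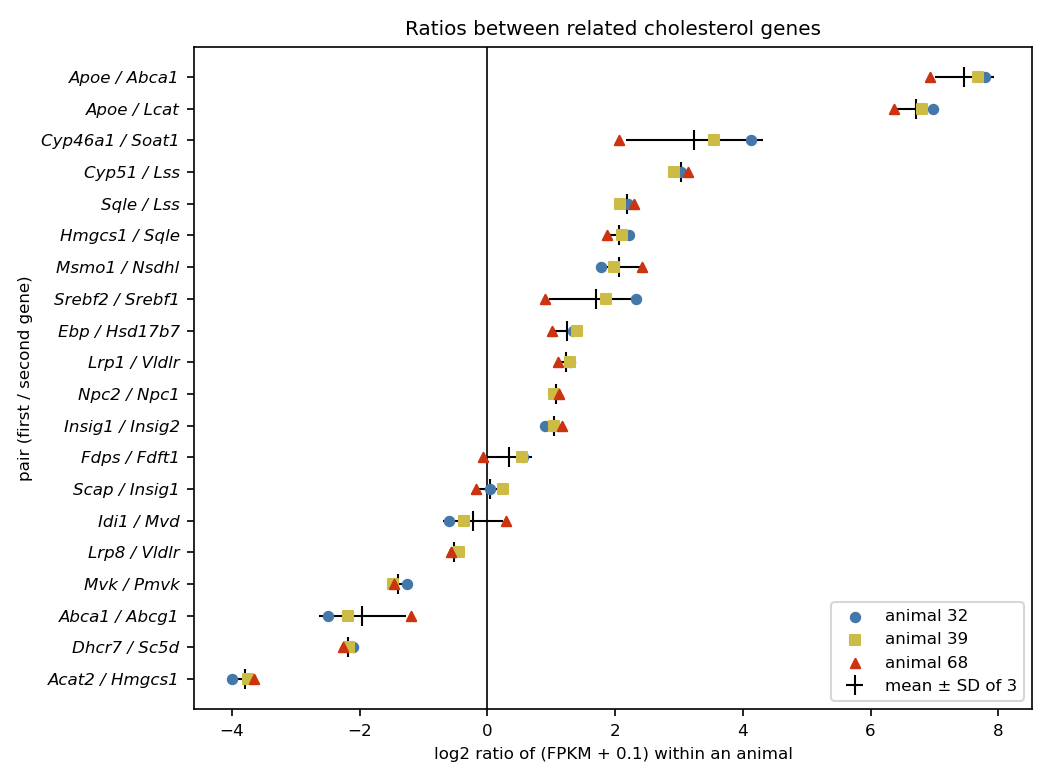
Log2 ratio of FPKM + 0.1 between the genes of each of 20 pairs, with 1 point per animal and the mean ± SD of the 3. Fdps over Fdft1, Scap over Insig1 and Idi1 over Mvd cross 0, and Cyp46a1 over Soat1 spreads most, from 4.12 in animal 32 to 2.05 in animal 68.

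Most of these genes had their highest value in animal 68. Of the 35 genes, 30 were highest in animal 68, where 46.7% of all expressed genes were. Likewise 30 were higher in animal 68 than in animal 32 (57.1% of all expressed genes). In animal 68, 13 of them were more than 1.5-fold higher than in animal 32 (19.4% of all expressed genes), and 1, Cyp46a1, was more than 1.5-fold lower (7.94%). The median gene of the set was 1.35-fold higher in animal 68 than in animal 32, against 1.05-fold over all expressed genes. With 1 library per animal there is no replicate of these differences and no test. In bulk tissue, fewer cells of a type and less RNA per cell cannot be told apart.

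Animals 32 and 39 differed less. Of the 35 genes, 24 were higher in animal 39 (56.9% of all expressed genes). Only Srebf1 was more than 1.5-fold higher in animal 39 (1.5003-fold; 8.1% of all expressed genes), none was more than 1.5-fold lower (2.23%), and the median gene of the set was 1.07-fold higher, against 1.03-fold over all expressed genes. Between animals 39 and 68, 32 genes were higher in animal 68 (54.2% of all expressed genes), 12 genes were more than 1.5-fold higher in animal 68 (12% of all expressed genes) and none lower (6.53%). Animal 39 lay between a lower animal 32 and a higher animal 68 for 23 genes (32.9% of all expressed genes), and between a higher animal 32 and a lower animal 68 for Fdps and Cyp46a1 (21.8%).

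The 13 genes that were over 1.5-fold higher in animal 68 than in animal 32 came from every role. Srebf1 (2.96-fold), Abca1 (2.70-fold), Soat1 (2.52-fold), Clu (2.51-fold), Lcat (2.27-fold), Npc2 (2.21-fold), Npc1 (2.12-fold) and Idi1 (2.07-fold) exceeded 2-fold, 8 genes where 9.77% of all expressed genes did. Cyp51 (1.73-fold), Sqle (1.72-fold), Msmo1 (1.72-fold), Acat2 (1.70-fold) and Lss (1.60-fold), all enzymes of synthesis, made up the rest. Apoe (1.49-fold) and Hsd17b7 (1.48-fold) lay just under the limit. Scap (0.997-fold), Mvk (0.9996-fold), Insig2 (0.952-fold) and Abcg1 (1.10-fold) were nearly level between these animals. By role, the median ratio of animal 68 to animal 32 was 2.27-fold for export and lipoprotein genes, 1.42-fold for squalene and sterol synthesis, 1.42-fold for uptake and lysosomal egress, 1.14-fold for the mevalonate pathway and 1.13-fold for regulators. Synthesis enzymes thus differed among themselves, from 0.861-fold for Fdps to 2.07-fold for Idi1.

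**Figure D3:**
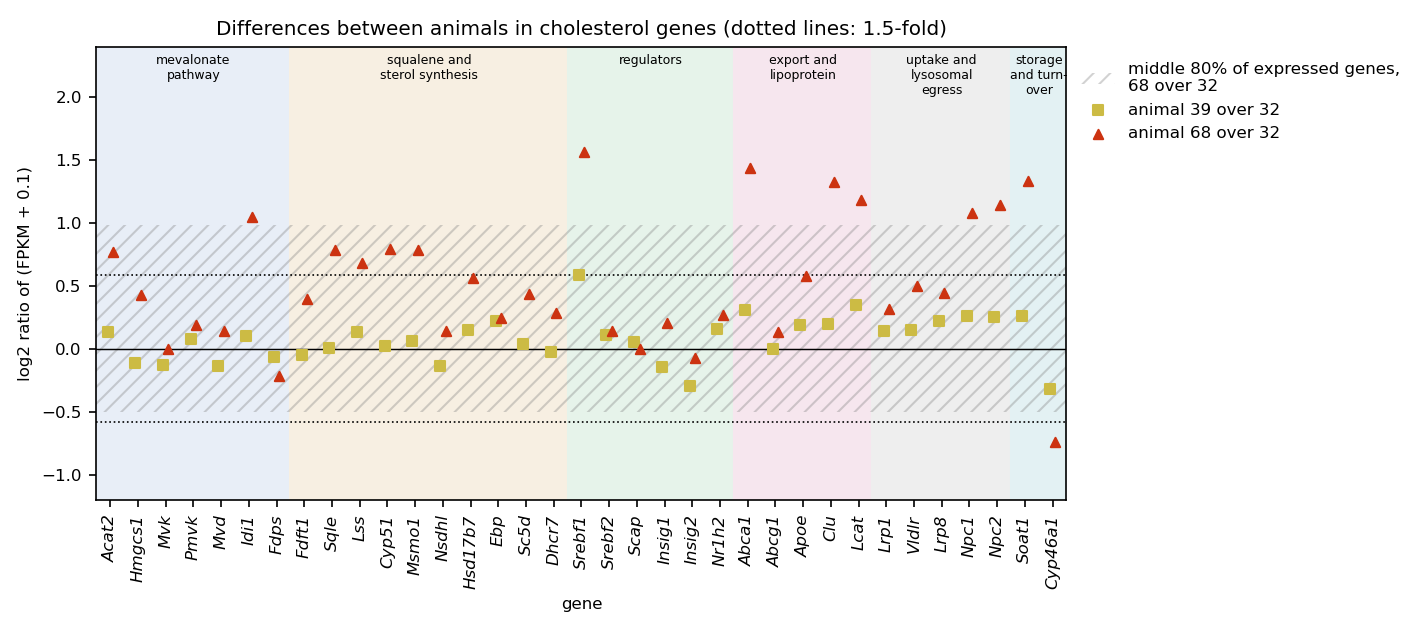
Log2 ratio of FPKM + 0.1 of animal 39 over 32 (squares) and animal 68 over 32 (triangles) for each of the 35 genes, with dotted lines at 1.5-fold and a hatched band over the middle 80% of expressed genes for animal 68 over 32. Most squares lie near 0, with that of Srebf1 (0.585) at the upper dotted line. Above that line lie 13 triangles, against 1 below the lower.

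Markers of several cell types moved with these differences. The 10 oligodendrocyte markers, led by Mbp, were all highest in animal 68 and lowest in animal 32, and summed to 3470.3, 5345 and 9365 FPKM in animals 32, 39 and 68. The 7 oligodendrocyte precursor markers, led by Olig1 and Sox10, had the same order in every case and summed to 102, 153 and 239.5 FPKM. The 10 astrocyte markers, led by S100b and Glul, were all highest in animal 68 and summed to 1427, 1517 and 2497 FPKM, a step between animals 39 and 68 with little between 32 and 39. The 8 microglial markers, led by C1qa and Csf1r, were highest in animal 68 and summed to 51.1, 83.8 and 115 FPKM. Choroid plexus sums are given above, and those of ependyma, led by Rarres2 and Dynlrb2 (21.3, 29.9 and 46.4 FPKM) and of striatal neurons, led by Ppp1r1b (139, 118 and 259 FPKM) were also largest in animal 68. Rarres2 itself differed little, at 13.8, 15.5 and 15.3 FPKM, and was highest in animal 39. The 3 other ependyma markers averaging 1 FPKM or more were highest in animal 68. The 10 neuronal markers, led by Snap25 and Thy1, summed to 4413, 3965 and 3222 FPKM, with 9 of 10 lowest in animal 68, and the 6 endothelial markers, led by Itm2a and Cldn5, to 122, 109 and 98.4 FPKM. No marker of these 9 lists was listed at 0 in all libraries.

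Set side by side, Cyp46a1 was at 0.600-fold in animal 68 against animal 32 and the neuronal list at a median of 0.754-fold. The oligodendrocyte list was 1.47-fold higher in animal 39 than in animal 32 at its median, while the cholesterol genes were 1.07-fold higher. The astrocyte list was 1.05-fold higher, a median over markers that moved in both directions. The part of these cell types in the differences of the cholesterol genes was not tested.

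**Figure D4:**
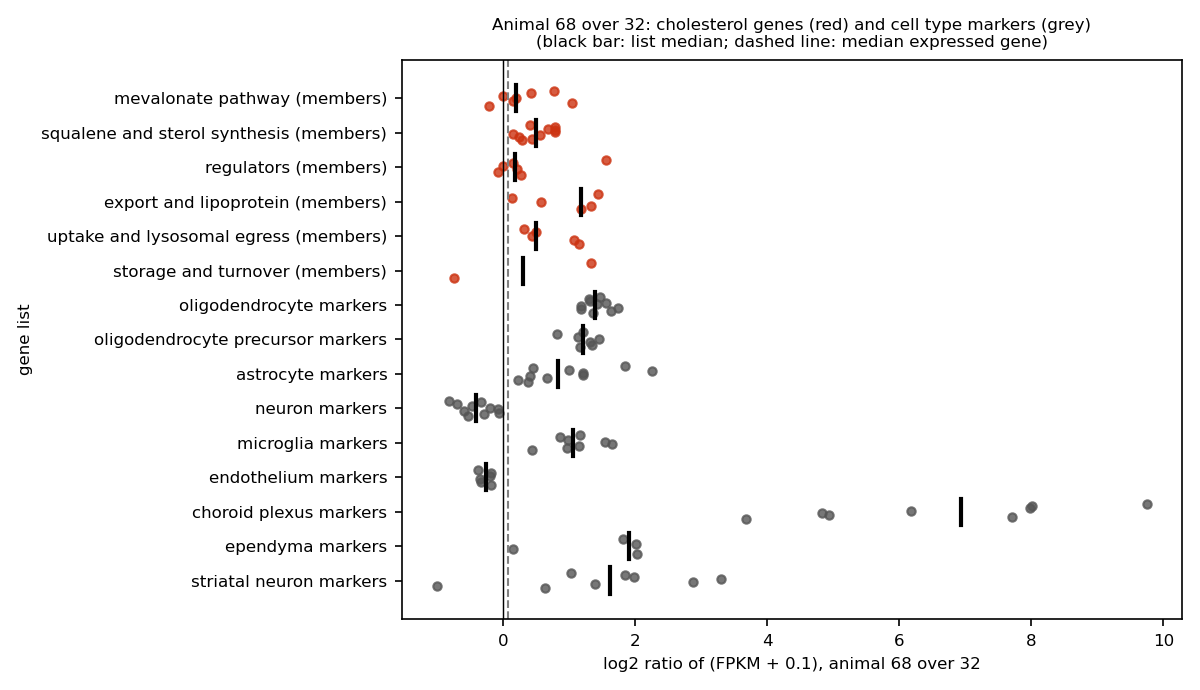
Log2 ratio of FPKM + 0.1 of animal 68 over 32 for single genes, for the 6 roles of cholesterol genes (red) and 9 lists of cell type markers averaging 1 FPKM or more (grey), with a black bar at each list's median and a dashed line at the median expressed gene. Choroid plexus markers lie farthest to the right, and neuronal and endothelial markers lie below 0.

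Promoter windows of the RefSeq annotation (GRCr8 build, 250 bases before to 50 after the start) were available for 29 of the 35 genes and were searched on both strands. The CCAAT box, bound by NF-Y, a partner of SREBP, was held by 21 of the 29 (72.4%), against 39.6% of the 27457 genes with a window. The GC box GGGCGG, bound by Sp1, was held by 24 (82.8%, against 36.0%), and the E-box CACGTG by 4 (13.8%, against 7.08%). The sterol regulatory element in the form TCACNCCAC was found in none of the 29 windows and in 1.25% of all genes. Windows of the cholesterol genes had a median GC content of 63.7%, against 51.7% for all windows, and shares of GC-rich motifs move with that content. The 27457 genes were not limited to the 13378 expressed ones, while all 29 cholesterol genes were expressed. No motif share over expressed genes alone was computed. A match of letters is a description and not a bound site, and the absence of one says only that these letters are not in this window.

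The windows of Msmo1, Cyp51 and Idi1 are shown because these enzymes were 1.72-fold, 1.73-fold and 2.07-fold higher in animal 68 than in animal 32, and that of Fdps because it was not (0.861-fold). Capitals mark CCAAT or its reverse complement ATTGG, and each window reads 5′ to 3′ along the gene's strand.
Msmo1, chr16:29746863-29747162 (+ strand): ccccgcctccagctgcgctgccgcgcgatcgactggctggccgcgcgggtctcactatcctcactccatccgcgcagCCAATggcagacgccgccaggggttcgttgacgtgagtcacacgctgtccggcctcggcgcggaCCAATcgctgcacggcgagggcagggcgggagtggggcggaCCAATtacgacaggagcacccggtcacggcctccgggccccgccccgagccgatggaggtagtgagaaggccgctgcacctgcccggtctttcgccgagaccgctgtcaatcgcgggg
Cyp51, chr4:30991443-30991742 (+ strand): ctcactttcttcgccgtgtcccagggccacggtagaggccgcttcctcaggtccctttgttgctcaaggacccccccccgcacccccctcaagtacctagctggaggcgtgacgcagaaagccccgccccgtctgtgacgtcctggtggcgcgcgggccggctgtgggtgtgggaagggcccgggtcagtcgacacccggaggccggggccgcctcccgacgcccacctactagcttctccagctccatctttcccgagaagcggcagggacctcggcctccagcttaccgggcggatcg
Idi1, chr17:66547475-66547774 (- strand): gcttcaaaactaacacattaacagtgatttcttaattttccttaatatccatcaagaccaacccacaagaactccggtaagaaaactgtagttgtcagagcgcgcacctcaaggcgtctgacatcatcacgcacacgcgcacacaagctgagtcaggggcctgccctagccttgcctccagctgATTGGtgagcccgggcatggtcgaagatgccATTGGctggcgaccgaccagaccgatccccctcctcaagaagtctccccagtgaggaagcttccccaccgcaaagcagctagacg
Fdps, chr2:176804767-176805066 (- strand): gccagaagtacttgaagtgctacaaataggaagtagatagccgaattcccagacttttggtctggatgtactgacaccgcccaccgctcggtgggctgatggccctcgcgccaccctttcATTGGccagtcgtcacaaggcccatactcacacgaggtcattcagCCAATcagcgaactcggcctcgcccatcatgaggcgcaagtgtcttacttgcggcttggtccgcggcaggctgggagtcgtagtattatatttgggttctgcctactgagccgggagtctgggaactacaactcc
Msmo1 held 3 CCAAT boxes, Idi1 and Fdps held 2 each and Cyp51 held 0.

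Other genes of the pathway were taken from a list of 70 symbols, of which 69 were found and 60 were expressed at that level. Of these, 30 lay above the median gene, 17 below and 13 in neither class by the same limma test, beside 41.7 and 41.5% of all genes. The highest were Apod, apolipoprotein D, at 128, 198 and 417 FPKM, the sterol-binding protein gene Osbpl1a at 130.1, 98.8 and 76.1 FPKM, and the transporter gene Abca2, known from oligodendrocytes, at 67.8, 89.0 and 132 FPKM. Stub1, a ubiquitin ligase (93.0 ± 8.95 FPKM), and Pgrmc1, a membrane haem protein (75.8 ± 1.91 FPKM), differed little between animals. Idi2, Soat2 and Cyp7a1, the last being the first enzyme of bile acid synthesis in liver, were listed at 0 in every library. In animal 68, 12 of the 60 genes were over 1.5-fold higher than in animal 32 and 3 were over 1.5-fold lower, beside 19.4 and 7.94% of all expressed genes.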

How the data were processed

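Motor cortex mRNA of 3 rats was sequenced, 1 library per animal. FPKM is the authors' deposited unit: fragments were counted and normalized per gene, per the labels. The submitters' processing notes list HISAT2 2.0.4, StringTie 1.3.0 and the Rnor_6.0 build. Strand setting and annotation are not stated there. Depth (16550241, 15460924 and 17670986 fragments in animals 32, 39 and 68) was inferred from genes with spans of up to 400 bases, of which 82.0 to 86.6% then had values within 0.02 of a whole fragment, in part by construction; it covers counting error only. No value above 0 was shared between libraries.

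Values were analysed as log2(FPKM + 0.1) for genes averaging 1 FPKM or more. The test of a level against its library's median gene used limma 3.58.1 (R 4.3.3) with 2.26 prior degrees of freedom. Differences between animals were counted at 1.5-fold and have no test. The p-values concern these 3 animals only. As alternatives, each animal was left out, and the scaling, fold limit, reference level, limma prior, pseudocount (0.01, 1) and filter (5 FPKM, none) were varied. Promoters came from RefSeq tables (GRCr8). Python 3.11.15 with pandas 2.3.3 was used for the rest.

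The 35 genes, the gene lists, pairs and tests were chosen with earlier results of these data known. Named genes are all 35, the 6 highest other pathway genes and those at 0, and the 2 highest markers of each list; any other gene was picked with its values in view. Some genes that this rule names are counted in their lists but not reported here.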

Additional observations from a re-analysis of the deposited data

How the results depend on the processing

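All 3 animals form 1 group. No paired analysis was possible because there is no second group to pair with. With single animals left out, 22 to 24 cholesterol genes lay above the median gene and 1 to 7 below it, and the pathway list gave 28 to 30 above. Among the 2 animals that remained, 17 to 20 pairs had 1 direction, a count that cannot go below 17 by construction. The median level of the 35 genes was 19.8 to 24.1 FPKM. The filter on low values, which moves the median gene itself, shifted the counts: with none, 31 cholesterol genes lay above and 0 below (43.5 and 43.7% of all genes) and 42 of 66 pathway genes above. With a mean of at least 5 FPKM, 19 of 34 lay above and 8 below (40.1 and 39.4% of all genes), and 26 of 48 pathway genes above. The other limma settings gave 24 or 25 above and 4 below. Mvk lay below the median gene with the 5 FPKM filter and Dhcr7 above it with none. At a limit of 2-fold, 8 genes were higher in animal 68 than in animal 32 and 0 lower (9.77 and 3.05% of all genes), 3 were higher in animal 68 than in animal 39 (4.18%), and 0 were higher in animal 39 than in animal 32 (2.59%). The single gene over 1.5-fold higher in animal 39 than in animal 32, Srebf1, lies at the limit, and the count was 0 with a pseudocount of 1, with median-of-ratios scaling and with equal totals without mitochondrially encoded genes. The level of each of the 35 genes moved by less than its SD with median-of-ratios scaling and with equal totals without mitochondrially encoded genes; leaving out 1 of 3 animals cannot move a mean by its SD, so that comparison says nothing of stability. Scaling to equal totals raised the number of genes higher in animal 68 than in animal 32 from 30 to 32; the 2 other scalings left it at 30. Genes near 5 FPKM rest on fewer fragments than Apoe, and differences between animals have no replicate.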

Other observations

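Among the other pathway genes, chosen after their values were seen, the lysosomal lipase gene Lipa, whose product frees cholesterol from esters ahead of Npc2 and Npc1, was at 9.56, 8.48 and 4.68 FPKM in animals 32, 39 and 68, lowest where Npc1 and Npc2 were highest. Osbpl1a was also lower in animal 68 than in animal 32 (0.585-fold), as Cyp46a1 was. Lpl, the lipoprotein lipase gene, was at 8.01, 10.5 and 31.4 FPKM. Cyp7b1, which hydroxylates oxysterols, was at 3.85, 4.80 and 10.5 FPKM. Erlin2, an endoplasmic reticulum protein, was at 10.4, 12.5 and 23.4 FPKM, while its relative Erlin1 was at 8.50, 8.78 and 7.25 FPKM. These are values of single libraries with no test.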
